A study of Homo sapiens with 6 samples.

Results

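The transcripts described here are those of 9 genes that encode the transcription-linked cyclin-dependent kinases (CDKs) other than CDK9, with their cyclins and one assembly factor. They were chosen by symbol, by their known roles and with earlier results of these data known, and all 9 were found among the 32322 genes with values: CDK7, CCNH, MNAT1, CDK8, CDK19, CCNC, CDK12, CDK13 and CCNK. RNA came from cells titled MDA-MB-231, an established line of triple-negative breast cancer, labelled wild type in every sample. Cells received compound 28 at 500 nM for 4 h (3 libraries), or DMSO for a time that is not stated (3 libraries). The series title calls compound 28 a degrader of CDK9, so the comparison asks how the messages of the kinases next to CDK9 in the transcription cycle differ after a short treatment.

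CDKs are active only when bound to a cyclin. CDK7, with cyclin H (CCNH) and the assembly factor MAT1 (MNAT1), forms the CDK-activating kinase, which phosphorylates the tail of RNA polymerase II as part of TFIIH and also activates other CDKs. CDK8 or its close relative CDK19 binds cyclin C (CCNC) in the kinase module of Mediator, which docks reversibly on the Mediator core. CDK12 and CDK13 share cyclin K (CCNK) and act on elongating polymerase; CDK12 is known for its part in the expression of long DNA repair genes.

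Reads assigned to genes came to 28505897 to 34062330 per library with compound 28 and 37186728 to 54830987 with DMSO. Every member was well covered, with 166 reads for the lowest value of any member (CDK8 in compound 28) and 5985 for the highest (CDK13 in DMSO). Rows that name no gene held 40.4% to 46.9% of reads with compound 28 and 30.4% to 32.8% with DMSO; the part of this gap in the results was not tested. The markers went against the titles in part. EGFR, one of 8 markers listed for the named line, had no row. Of the 7 with a row, CAV1 was at 0 in 4 of 6 libraries and at most 5.03 normalized counts. ZEB1 lay at 11.8 to 36.5 over both groups. SPARC averaged 75.6 with compound 28 and 8.18 with DMSO, and AXL 204 and 141. By contrast, VIM, CD44 and MMP14 were abundant, with means of 3054, 5748 and 13342 normalized counts in compound 28 and 3056, 9049 and 10749 in DMSO. The summed level of the 7 was 21857 to 22754 with compound 28 and 22843 to 23165 with DMSO. That sum rests almost wholly on VIM, CD44 and MMP14, and whether they mark the named line here was not tested. All 6 leukocyte and myeloid markers had reads in every library, among them SPI1, a myeloid transcription factor, with 5406 ± 469 normalized counts in compound 28 and 9048 ± 826 in DMSO (SD, n = 3 each). The highest of the 6 was LYZ, with means of 21124 in compound 28 and 15882 in DMSO. The lowest was MPO, with 432 and 224. The summed level of these 6 was 31783 to 34045 with compound 28 and 31927 to 46319 with DMSO, and their part in the results was not tested. DMSO replicate 3 stood apart from its group, with a chi-square per gene of 61.1 against DMSO replicate 1, where DMSO replicates 1 and 2 gave 15.7. Compound 28 pairs gave 13.1 to 19.6, and no pair agreed within sampling noise.

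Values are normalized counts, which are reads divided by one size factor per library. Changes are compound 28 over DMSO on the log2(normalized count + 1) scale, tested with limma-trend across 18278 genes and called at a Benjamini-Hochberg adjusted p under 0.05. In bulk RNA, fewer cells of a type and less RNA per cell cannot be told apart. Of the 9 members, 6 were called lower, 1 higher and 2 were not called. Among all genes tested 72.8% were called, 37.3% lower and 35.5% higher, so the 7 calls among 9 members are a share near the background. The groups did not overlap in 8 of the 9 members, against 75.7% of all genes. At 2-fold or more, 3 members were lower (23.1% of all genes) and 1 was higher (21.1%). The median log2 change was -0.48 over the members and -0.03 over all genes tested, and the members ranged from -1.46 for CDK8 to 1.29 for CCNK.

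**Figure D1:**
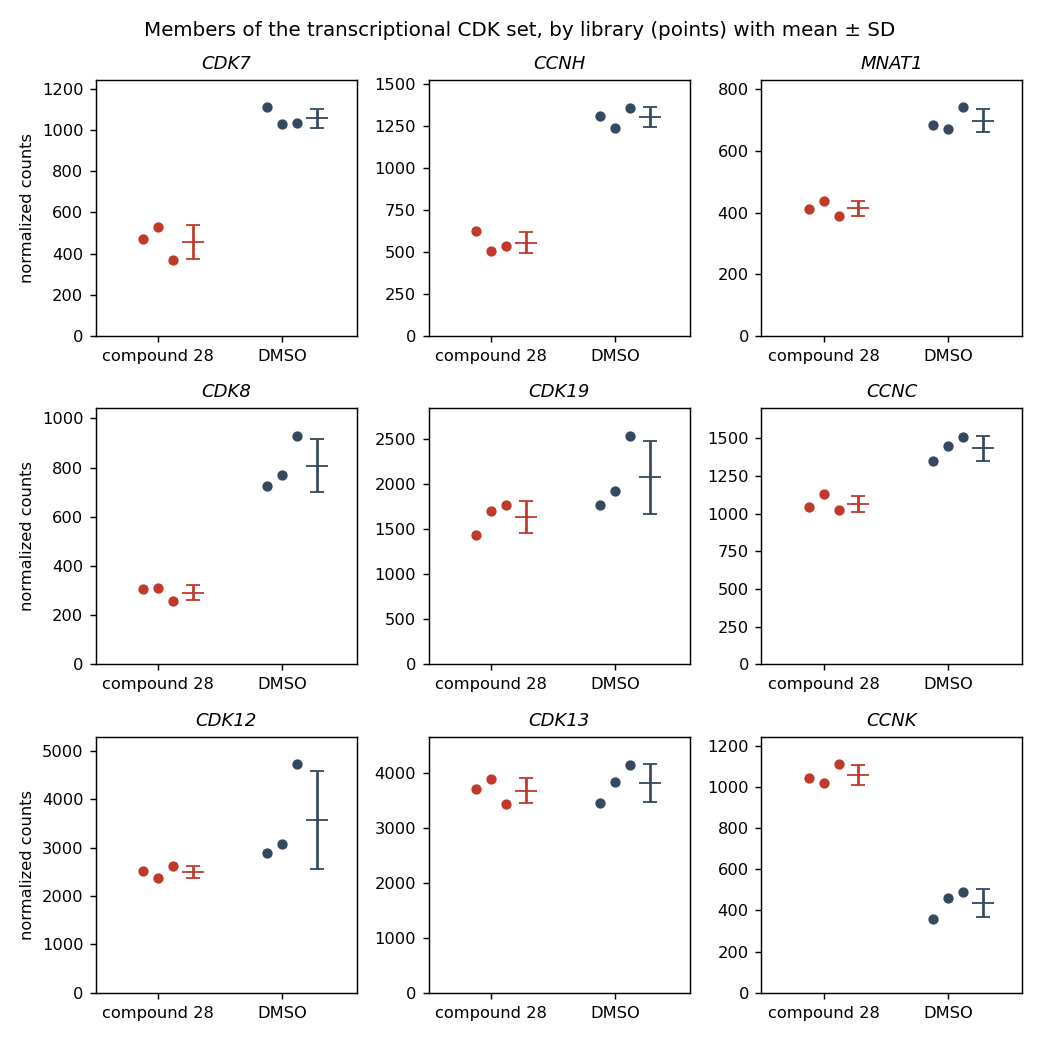
Normalized counts of each member in every library, with compound 28 left of DMSO and the mean ± SD beside the points (y axes start at 0 and differ between panels). Compound 28 points lie below all DMSO points in 7 panels, above them for CCNK, and among them for CDK13.

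Scaling moved every member alike, and CDK13 and CCNK changed sign with it, whereas the other 7 members were below 0 in every setting run. Over all genes the median log2 change lay at -0.03 under the size factors in the deposited table and at -0.48 with reads scaled to library size. It was 0.16 under upper-quartile scaling, -1.14 when 78 ribosomal protein mRNAs were held level and -1.47 when the 13 mitochondrial mRNAs were. CDK7, CCNH, MNAT1, CDK8 and CCNC were called lower in each of 20 alternative settings. CDK13 was called lower at library size (log2 change -0.50) and with ribosomal protein (-1.17) or mitochondrial (-1.51) mRNAs held level, and was not called otherwise.

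**Figure D2:**
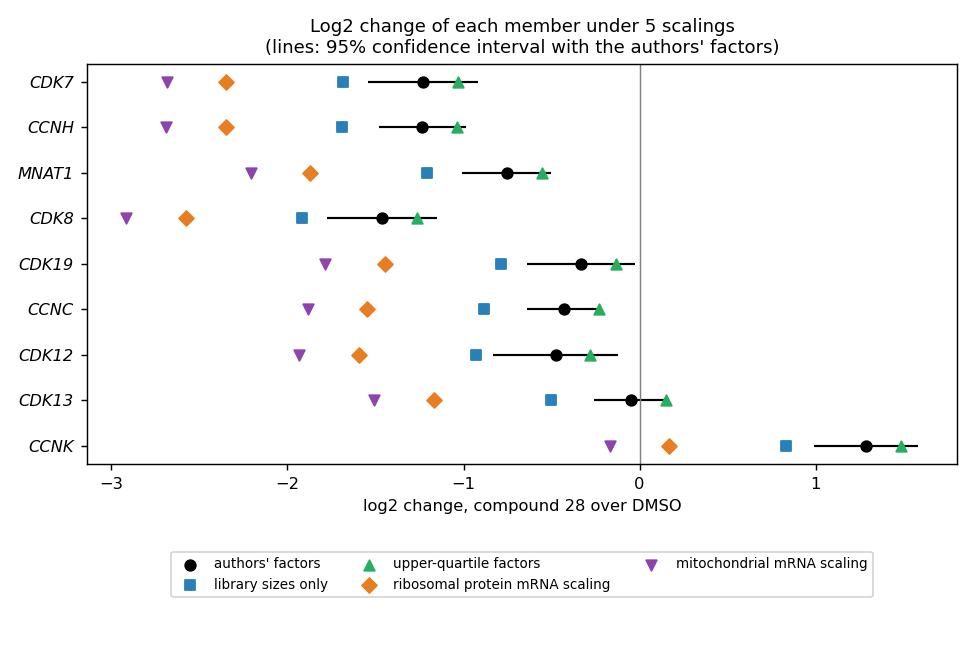
Log2 change of each member, compound 28 over DMSO, under 5 scalings (symbols), with the 95% confidence interval for the authors' factors as a line. Each scaling shifts all members alike, so that CDK8 stays lowest and CCNK highest, while CDK13 and CCNK change side of 0.

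The CDK-activating kinase trio was lower as a whole. CDK7, its catalytic subunit, had 470, 528 and 367 normalized counts in compound 28 replicates 1 to 3, against 1111, 1028 and 1035 in DMSO. The groups were well apart, and CDK7 fell 2.35-fold (log2 change -1.23 ± 0.14 SE, adjusted p = 1.9e-05, limma). CCNH, the cyclin that CDK7 needs, had 623, 503 and 538 normalized counts in compound 28 and 1309, 1240 and 1357 in DMSO. Its fall of 2.35-fold was of the same size as that of CDK7 (log2 change -1.23 ± 0.11 SE, adjusted p = 3.7e-06, limma). MNAT1, the RING-finger factor that holds kinase and cyclin together, had 413, 436 and 390 normalized counts in compound 28 and 682, 669 and 741 in DMSO. It fell 1.69-fold (log2 change -0.75 ± 0.11 SE, adjusted p = 0.00015, limma).

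Ratios of 2 genes within one library do not depend on the scaling of that library, and 9 such ratios were compared; only their difference between groups is read, since they are not per length. The log2 ratio of CDK7 to CCNH was -0.30 ± 0.32 in compound 28 and -0.30 ± 0.08 in DMSO (SD, n = 3 each; two-sided exact permutation p = 1). Its difference of 0.00 had no stable sign: it was -0.18 without compound 28 replicate 2, where CDK7 was highest and CCNH lowest of the group, and 0.13 at the other end when 1 library was left out. The log2 ratio of CDK7 to MNAT1 was 0.12 ± 0.19 in compound 28 and 0.60 ± 0.11 in DMSO, and that of CCNH to MNAT1 was 0.42 ± 0.20 in compound 28 and 0.90 ± 0.04 in DMSO (SD, n = 3 each). Both lay lower in every compound 28 library than in any DMSO library, with a difference of -0.48 each. With 3 libraries a group the test cannot give an exact permutation p below 0.1, the value of both, or 0.129 adjusted over the 9 ratios.

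The remaining TFIIH subunits were mostly lower too. Of 6 core subunits tested, 0 were called higher, 4 lower and 2 not called, where 35.5% of all genes were called higher and 37.3% lower. Their median log2 change was -0.58, against -0.03 over all genes. GTF2H4, also listed, had no row. GTF2H1, a scaffold subunit, had the largest fall, with 1086 ± 41.1 normalized counts in compound 28 and 2059 ± 212 in DMSO (SD, n = 3 each; log2 change -0.92). The helicase genes ERCC3 (log2 change -0.55) and ERCC2 (-0.60), whose product also bridges to the CDK-activating kinase, fell as well. GTF2H3 and GTF2H5 were not called, with log2 changes of 0.19 and 0.12; of the 6, 1 was called higher under upper-quartile scaling and all were lower at library size.

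CDK8 and CDK19, the alternative kinases of the Mediator module, have alike coding sequences. The stretch around their longest identical run is shown because a read lying wholly inside such a run would match both genes. How the counting treated such reads is not stated. Below are 120 bases of each, coding positions 510 to 629 counted from the A of the start codon, from the principal GENCODE release 29 transcripts (CDK8 on chromosome 13, CDK19 on chromosome 6). Capitals mark the 20 bases that differ.
CDK8: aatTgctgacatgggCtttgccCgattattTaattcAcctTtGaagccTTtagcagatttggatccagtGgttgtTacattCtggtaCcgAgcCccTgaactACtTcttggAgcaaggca
CDK19: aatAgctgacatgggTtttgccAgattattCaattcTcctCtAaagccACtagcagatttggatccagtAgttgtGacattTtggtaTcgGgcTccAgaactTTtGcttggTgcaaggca
The longest run without a difference was 19 bases in the coding sequences of 1392 and 1506 bases, and no stretch of 50 bases was shared. A read longer than that run, from within these coding sequences, would differ between the genes. Untranslated regions were not compared. No source used here states the read length.

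CDK8 was called lower and CDK19 narrowly was not. CDK8 had 308, 309 and 258 normalized counts in compound 28 replicates 1 to 3 and 727, 769 and 930 in DMSO. It showed the largest fall of the 9 members, 2.76-fold (log2 change -1.46 ± 0.14 SE, adjusted p = 5.3e-06, limma). CDK19 had 1438, 1702 and 1770 normalized counts in compound 28 and 1773, 1919 and 2537 in DMSO. The highest compound 28 value lay just under the lowest DMSO value, and the log2 change of -0.33 ± 0.14 (SE; 95% confidence interval -0.64 to -0.02) missed the threshold (adjusted p = 0.051, limma). That call sits on the edge: in the authors' deposited table, where 54.5% of genes with an adjusted p pass, CDK19 has a log2 fold change of -0.34 and an adjusted p of 0.041, edgeR's quasi-likelihood test gave an adjusted p of 0.026, and without DMSO replicate 3 the log2 change was -0.18 (adjusted p = 0.15, limma).

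The log2 ratio of CDK8 to CDK19 put these side by side within libraries. It was -2.22, -2.46 and -2.77 in compound 28 and -1.29, -1.32 and -1.45 in DMSO, a difference of -1.13 with no overlap (exact permutation p = 0.1, the smallest possible; 0.129 adjusted over the 9 ratios). CCNC, the cyclin both kinases use, had 1041, 1128 and 1024 normalized counts in compound 28 and 1347, 1447 and 1511 in DMSO. It fell 1.35-fold (log2 change -0.43 ± 0.09 SE, adjusted p = 0.0020, limma). CDK8 was also lower relative to CCNC, with log2 ratios of -1.87 ± 0.12 in compound 28 and -0.83 ± 0.12 in DMSO (SD, n = 3 each), without overlap. CDK19 relative to CCNC had 0.62 ± 0.16 in compound 28 and 0.52 ± 0.20 in DMSO (SD, n = 3 each; exact permutation p = 0.5), and the libraries overlapped.

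The large subunits of the kinase module were mostly called higher. MED13, which links the module to core Mediator, had 6679 ± 458 normalized counts in compound 28 and 3109 ± 477 in DMSO (SD, n = 3 each; log2 change 1.11), and its paralogue MED13L also rose (0.83). MED12, which activates the kinase, was not called, with 2276 ± 335 normalized counts in compound 28 and 2513 ± 430 in DMSO (SD, n = 3 each; log2 change -0.14). MED12L was called higher at a low level of 0.319 CPM. Where 35.5% of all genes were called higher and 37.3% lower, 3 of these 4 genes were called higher and 0 lower. These directions rested on scaling: with mitochondrial mRNAs held level 0 of the 4 were called higher and 2 lower (median log2 change -0.49), with ribosomal protein mRNAs 0 higher and 1 lower (-0.15), and MED13 itself had -0.34 and -0.0056, neither called.

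CDK12 and CDK13, which have the longest transcripts of the set, are likewise paralogues, and the stretch around their longest identical run is shown for the same reason. The 120 bases are coding positions 2352 to 2471 of CDK12 (chromosome 17) and 2286 to 2405 of CDK13 (chromosome 7), from GENCODE release 29, with the 20 differing bases in capitals.
CDK12: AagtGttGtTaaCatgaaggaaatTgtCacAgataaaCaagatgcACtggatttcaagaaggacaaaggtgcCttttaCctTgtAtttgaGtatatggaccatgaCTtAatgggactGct
CDK13: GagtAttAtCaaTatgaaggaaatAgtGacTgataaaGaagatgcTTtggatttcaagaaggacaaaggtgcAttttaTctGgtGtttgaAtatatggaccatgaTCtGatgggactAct
Here the longest identical run was 25 bases, in coding sequences of 4470 and 4536 bases, and again no stretch of 50 bases was shared.

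CDK12, CDK13 and their cyclin gave 3 different results. CDK12 had 2521, 2365 and 2611 normalized counts in compound 28 replicates 1 to 3 and 2897, 3070 and 4721 in DMSO. The groups did not overlap, but DMSO replicate 3 stood far above the others. CDK12 fell 1.39-fold (log2 change -0.48 ± 0.16 SE, adjusted p = 0.020, limma). Its log2 change was -0.26 without DMSO replicate 3, where it stayed called (adjusted p = 0.015), and the call was lost without compound 28 replicate 1 (adjusted p = 0.052) or replicate 2 (0.076), in limma without a trend (0.083), and with upper-quartile factors (log2 change -0.28, adjusted p = 0.11, limma). CDK13 had 3721, 3898 and 3432 normalized counts in compound 28 and 3465, 3837 and 4156 in DMSO. The libraries were intermixed, and its log2 change of -0.05 ± 0.09 (SE; 95% confidence interval -0.26 to 0.16) was not called (adjusted p = 0.65, limma).

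CCNK, the cyclin that both kinases require, was the only member called higher. It had 1041, 1019 and 1110 normalized counts in compound 28 and 358, 462 and 489 in DMSO. Every compound 28 library lay above every DMSO library by a wide margin, and CCNK rose 2.44-fold (log2 change 1.29 ± 0.13 SE, adjusted p = 9.6e-06, limma). Holding ribosomal protein mRNAs level left a log2 change of 0.17, holding mitochondrial mRNAs level gave -0.17, and neither was called. Less the median of all genes, the change was 1.32 under the deposited size factors, 1.31 under the ribosomal protein scaling and 1.30 under the mitochondrial one. Scaling moves all genes alike, so this sameness was fixed in advance and is no separate evidence for the rise.

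Kinase-to-cyclin ratios in this complex differed more between the groups than the other 7 ratios. The log2 ratio of CDK12 to CCNK was 1.27, 1.21 and 1.23 in compound 28 and 3.01, 2.73 and 3.27 in DMSO, a difference of -1.76. That of CDK13 to CCNK was 1.84, 1.93 and 1.63 in compound 28 and 3.27, 3.05 and 3.09 in DMSO, a difference of -1.34. Neither overlapped (exact permutation p = 0.1 each, the smallest possible; 0.129 adjusted over the 9 ratios). CDK12 to CDK13 was -0.56 ± 0.16 in compound 28 and -0.13 ± 0.28 in DMSO (SD, n = 3 each; exact permutation p = 0.1), also without overlap. Its difference of -0.43 shrank to -0.27 without DMSO replicate 3.

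**Figure D3:**
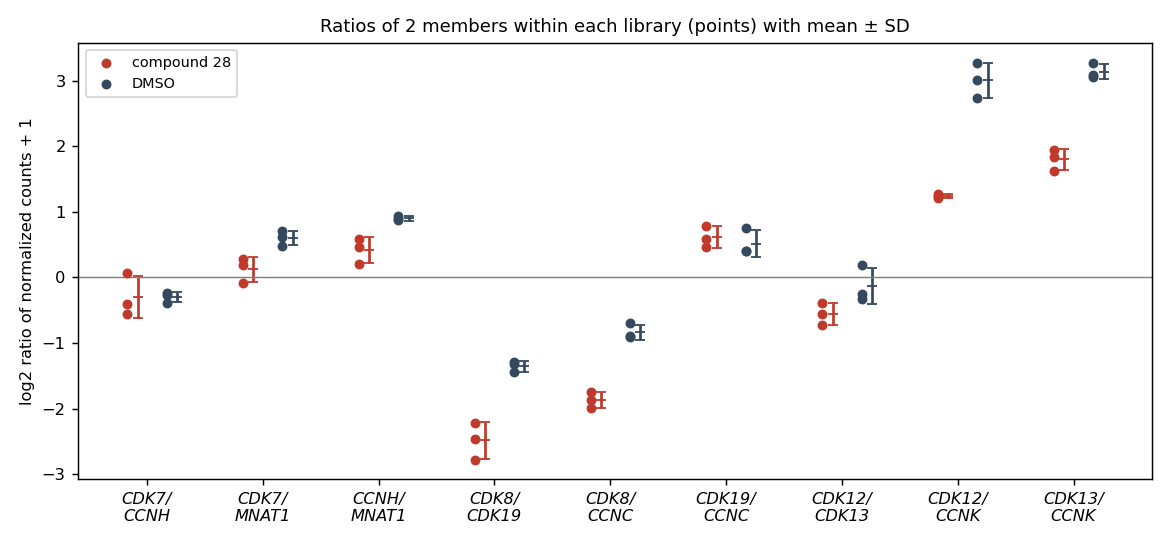
Log2 ratios of 2 members in each library (points) with mean ± SD, compound 28 left of DMSO in each pair. The ratios of CDK12 and CDK13 to CCNK and of CDK8 to CDK19 and CCNC differ most between groups, while CDK7 to CCNH and CDK19 to CCNC overlap.

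The exons of CCNK overlap those of CCDC85C on the opposite strand, and the library kit named in the labels keeps strand, but no source used here states the strand setting of the counting. CCDC85C moved against CCNK, with 308 ± 41.3 normalized counts in compound 28 and 508 ± 43.9 in DMSO (SD, n = 3 each; log2 change -0.72). CCNH likewise overlaps RASA1, a GTPase activator on the opposite strand, which had 649 ± 25.4 normalized counts in compound 28 and 1070 ± 193 in DMSO (SD, n = 3 each; log2 change -0.71). Without strand, the reads of such partners could not be told apart in the shared exons. CCNH, CCNC and CDK13 also overlap antisense genes, which had only 0.245 to 0.887 CPM. MNAT1 overlaps AL160236.2 on its own strand, where keeping strand does not help, and that gene had no values here. The processed pseudogene CDK7P1 had 0 to 12 reads per library.

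Starts of CCNK and CDK8 are shown because these members had the largest rise and the largest fall. Each is the 250 bases before the first start listed by RefSeq on GRCh38.p14, read 5′ to 3′ on the gene's strand. CCNK lies at chr14:99481159-99481408 (plus strand) and CDK8 at chr13:26253879-26254128 (plus strand). Capitals mark matches, on either strand, to the motifs searched: the GC box GGGCGG, the CCAAT box CCAAT, the TATA box TATAAA, the E box CACGTG, the core of the cAMP response element TGACG, the ETS core CCGGAA and the NRF1 core.
CCNK: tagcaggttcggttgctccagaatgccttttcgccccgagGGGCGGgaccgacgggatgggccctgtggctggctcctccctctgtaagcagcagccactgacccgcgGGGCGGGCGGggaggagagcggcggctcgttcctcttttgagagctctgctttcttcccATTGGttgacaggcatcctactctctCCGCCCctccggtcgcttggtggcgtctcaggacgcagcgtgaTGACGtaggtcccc
CDK8: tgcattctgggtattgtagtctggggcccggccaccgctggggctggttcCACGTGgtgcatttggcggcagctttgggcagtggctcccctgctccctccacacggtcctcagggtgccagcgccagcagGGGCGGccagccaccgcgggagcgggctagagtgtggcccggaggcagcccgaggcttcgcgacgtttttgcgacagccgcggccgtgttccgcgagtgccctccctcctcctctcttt
The CCNK window held 4 matches to the GC box, a pair of which overlap, and 1 each to the CCAAT box and the cAMP element core. The CDK8 window held 1 GC box and 1 E box. Among the 27305 windows of the same length in the table, 42.3% held a GC box, 33.0% a CCAAT box, 21.7% the cAMP element core and 6.49% an E box. The E box was also matched once in the CDK7 window, and by no other member. CDK12 held none of the 7 motifs, and 0 of the 9 members had a TATA box (11.1% of all windows) or the NRF1 core (1.13%). These are matches of letters, and nothing was measured about binding.

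Per kilobase of the principal transcript, the order of the members differed between the groups. With compound 28 it ran from CCNC (431 ± 22.5 normalized counts per kb) through CCNH (402 ± 44.7), CDK13 (363 ± 23.2), CDK7 (316 ± 56.8), CCNK (299.9 ± 13.4), CDK12 (299.8 ± 15.0), CDK19 (262 ± 28.1) and MNAT1 (157 ± 8.79) to CDK8 (95.6 ± 9.63; SD, n = 3 each). From CCNC down to CDK12 each neighbour overlapped the next. CDK12 and CDK19 barely cleared each other, with a lowest CDK12 value of 283.7 and a highest CDK19 value of 283.4. CDK19, MNAT1 and CDK8 were each apart from the next. With DMSO the order was CCNH (945 ± 42.8), CDK7 (735 ± 32.1), CCNC (580 ± 33.3), CDK12 (427 ± 121), CDK13 (377 ± 34.1), CDK19 (332 ± 64.9), MNAT1 (264.7 ± 14.5), CDK8 (264.7 ± 35.1) and CCNK (124 ± 19.5; SD, n = 3 each). CCNH and CDK7 were each apart from the member below, the neighbours from CCNC to CDK19 overlapped, MNAT1 and CDK8 overlapped, and CCNK stood alone at the bottom. The level of CCNK per kb lay beside that of CDK12 in compound 28 and below all other members in DMSO. Which isoforms the cells used is not known from gene counts, and another transcript length would shift these levels.

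**Figure D4:**
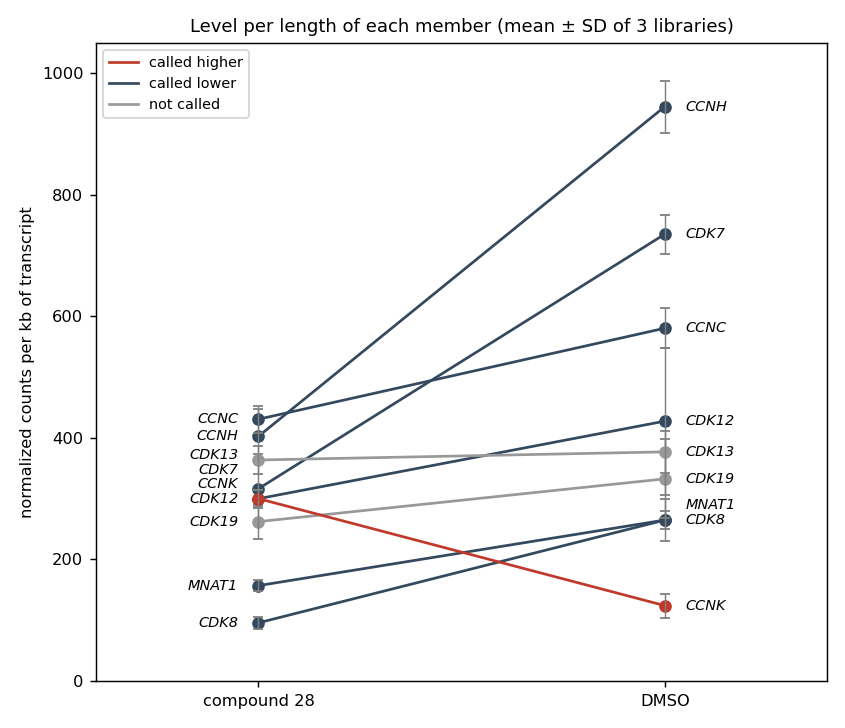
Normalized counts per kilobase of principal transcript (mean ± SD of 3 libraries), compound 28 at left and DMSO at right, with one line per member coloured by its call. CCNH and CDK7 are the highest in DMSO at 945 and 735. CCNK, with 299.9 in compound 28 and 124 in DMSO, crosses the lines of CDK19, MNAT1 and CDK8. It meets that of CDK12 at left and stays below those of CCNC, CCNH, CDK13 and CDK7.

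Genes of the wider CDK family and its targets went in both directions. Under the deposited size factors 35.5% of all genes were called higher and 37.3% lower. The 3 genes of P-TEFb, the CDK9 complex, were all called higher there, but 0 were called at library size. All 3 were called lower with ribosomal protein (median log2 change -0.77) or mitochondrial (-1.11) mRNAs held level. The largest rise under the deposited size factors was that of CCNT1, cyclin T1, with 3478 ± 370 normalized counts in compound 28 and 2254 ± 312 in DMSO (SD, n = 3 each; log2 change 0.63). Its log2 change was -0.83 with mitochondrial and -0.49 with ribosomal protein mRNAs held level, both called. Of 12 other CDKs and cyclins of the splicing-linked and neighbouring branches, 7 were called higher, 4 lower and 1 not called; with mitochondrial mRNAs held level 1 was higher and 9 lower. CCNL2, a cyclin partner of the splicing-linked CDK11 kinases, had 31804 ± 943 normalized counts in compound 28 and 6870 ± 975 in DMSO (SD, n = 3 each; log2 change 2.22). CDK20, a kinase tied to cilia and the cell cycle, had 84.5 ± 13.1 in compound 28 and 639 ± 99.6 in DMSO (SD, n = 3 each; log2 change -2.90). CDK11A and CDK11B are near-identical copies, so the split of reads between them is uncertain.

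Among 11 cell cycle CDKs and cyclins, 2 were called higher, 8 lower and 1 not called (median log2 change -0.62), where 35.5% of all genes were called higher and 37.3% lower. With mitochondrial mRNAs held level 0 were higher and 11 lower, and with ribosomal protein mRNAs 0 and 9. CCNB1, the mitotic cyclin B1, had 737 ± 82.3 normalized counts in compound 28 and 4148 ± 406 in DMSO (SD, n = 3 each; log2 change -2.49). CDK6, a G1 kinase, had 21944 ± 1403 in compound 28 and 12967 ± 2733 in DMSO (SD, n = 3 each; log2 change 0.78), and was lower under mitochondrial scaling (-0.68) and not called under ribosomal protein scaling (-0.34). Of the 4 kinases in this list, all known to be activated by the CDK-activating kinase, CDK1 (log2 change -1.43), CDK2 (-0.62) and CDK4 (-0.54) fell and CDK6 rose.

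Of 10 genes of phosphatases that act on the polymerase tail and their partners, 4 were called higher, 3 lower and 3 not called (median -0.15), a share called near the 72.8% of all genes. With mitochondrial mRNAs held level 0 were higher and 9 lower (median -1.61), and with ribosomal protein mRNAs 0 and 6 (-1.27). CTDP1, the phosphatase FCP1, had 5602 ± 365 normalized counts in compound 28 and 2331 ± 97.6 in DMSO (SD, n = 3 each; log2 change 1.26; -0.19 under mitochondrial scaling, not called). RPRD2, a protein of the family that binds the tail, had 828 ± 17.6 in compound 28 and 1865 ± 456 in DMSO (SD, n = 3 each; log2 change -1.14). Of 16 DNA repair genes named in work on CDK12, 4 were called higher, 9 lower and 3 not called (median -0.41). Among all genes 35.5% were called higher and 37.3% lower. RAD51D, a recombination factor, had 397 ± 31.7 in compound 28 and 1307 ± 107 in DMSO (SD, n = 3 each; log2 change -1.71). ATR, a checkpoint kinase, had 3251 ± 120 in compound 28 and 1855 ± 129 in DMSO (SD, n = 3 each; log2 change 0.81), and was lower under mitochondrial scaling (-0.65) and not called under ribosomal protein scaling (-0.31). With mitochondrial mRNAs held level, 0 of the 16 were called higher and 15 lower.

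**Figure D5:**
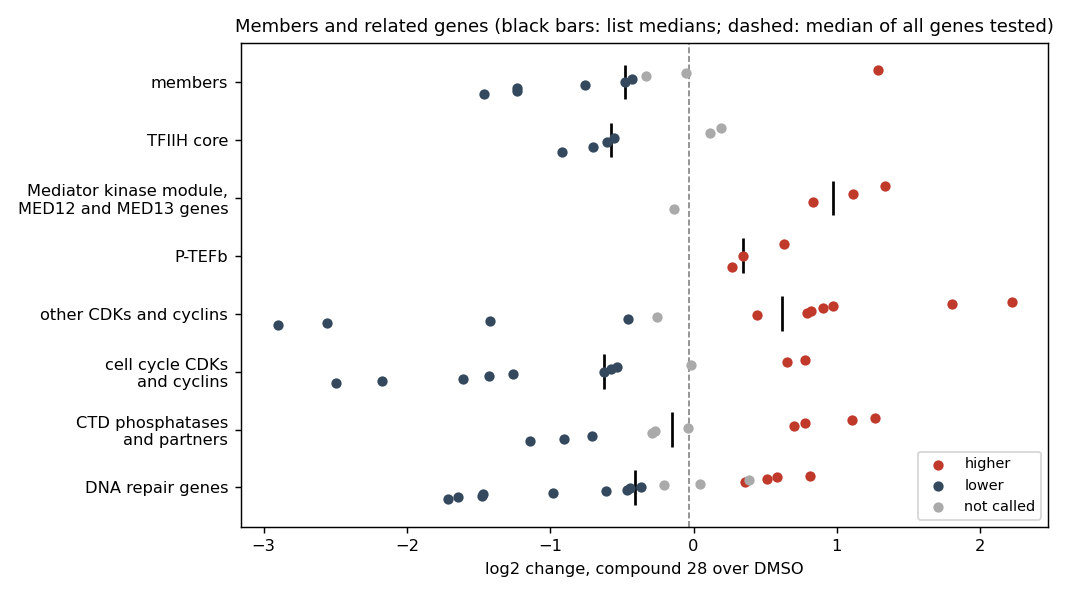
Log2 change, compound 28 over DMSO, of the members and of genes in 7 related lists (points coloured by call), with list medians as black bars and the median of all genes tested dashed. Members and TFIIH core genes lie mostly to the left, under the deposited size factors the MED12 and MED13 genes mostly to the right, the P-TEFb genes all to the right, and the remaining lists on both sides.

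The genes whose pattern over the 6 libraries was closest to CCNK, by the root mean square difference in log2 value from the DMSO mean among 3906 protein-coding genes of like level, were RAB5B (0.056), ZBTB39 (0.074) and ZCCHC24 (0.094). For CDK8, among 3601 genes, they were ZWILCH (0.064), STAM2 (0.067) and FAM114A2 (0.067). CCNK stood at percentile 83.1 of all log2 changes and CDK8 at percentile 15.9, so neither change is extreme among these genes.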

How the data were processed

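RNA of 6 samples, 3 with compound 28 and 3 with DMSO, was sequenced from stranded mRNA libraries, per the labels' protocols, and groups were taken from the sample titles. The authors deposited one table of normalized counts, a signal per gene and library that from the values is reads divided by 1 size factor per library, and 100% of values above 0 came out as whole reads within 0.01. The tools named in the submitters' processing notes are HTSeq, SAMtools, StringTie, HISAT2 and fastp, and the builds GRCh37 and hg19; no versions or counting settings were stated there. The same deposited table holds the authors' own log2 fold change, its standard error and test statistic (each a score), and raw and adjusted p-values, per the file headers, and these are quoted only where named. Here 5 rows naming no gene were left out (30.4% to 46.9% of reads). The test was limma-trend (limma 3.58.1, R 4.3.3) on log2(normalized count + 1) after the edgeR 4.0.16 filter filterByExpr on recovered reads, over all 18278 genes tested, with Benjamini-Hochberg adjustment. The design took each library as the unit. Alternatives covered 6 scalings, pseudocounts, filters, edgeR and DESeq2 1.42.0 on recovered reads, limma without trend, a replicate block and each library left out. The script was tested on simulated counts.

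The labels do not say whether replicates came from separate cultures. The p-values here set the difference between groups against the spread of these libraries only, and that spread may be technical. The cell line labels count up by 1 with each sample from the name in the titles, which is the one used. Intervals on changes cover the spread between libraries only. Of the genes, 95.8% matched GENCODE release 29 by symbol, used for biotypes, transcript lengths, overlaps and coding sequences. All 9 members matched RefSeq promoters. Members and lists were chosen with earlier results of these data known. Named were all members and, per list, the called genes with the largest rise and fall at 5 CPM or more; other list genes were chosen after their values were seen.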

Additional observations from a re-analysis of the deposited data

How the results depend on the processing

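CDK7, CCNH, MNAT1, CDK8 and CCNC were called lower in all 20 alternatives, CDK12 in 16, CDK19 in 10 and CDK13 in 3, and CCNK was called higher in 18. The other calls turned on scaling, the filter or tool, or single libraries. Calls over all genes were 6487 higher and 6813 lower; 4218 were higher with library sizes only and 3624 at a mean of 5 CPM or more, where fewer genes were tested. Mitochondrial mRNA scaling gave 1810 higher and 13885 lower, and ribosomal protein scaling 2228 and 12439. Members called higher were 0 under either of these, where CCNK had log2 changes of -0.17 and 0.17. CDK13 had 0.15 with upper-quartile factors and -0.12 to 0.013 when 1 library was left out. The CDK7 to CCNH ratio difference ran from -0.18 to 0.13 when 1 library was left out (-0.04 without DMSO replicate 3). Under mitochondrial and ribosomal protein scaling, log2 changes were -0.34 and -0.0056 for MED13, -0.83 and -0.49 for CCNT1, -0.68 and -0.34 for CDK6, and -0.65 and -0.31 for ATR; CTDP1 had -0.19 under mitochondrial scaling. The cause of these shifts was not tested beyond the scaling itself, which moves all genes alike. With 1 library left out, 5 to 7 members were lower and 1 was higher. Same-numbered libraries had residual correlations of -0.03, 0.07 and 0.09, and differently numbered ones -0.13 to 0.10. These values cannot settle whether the numbers pair the libraries. With the replicate block 6511 genes were higher and 6769 lower. In that fit CDK19 was called lower (log2 change -0.33, adjusted p = 0.014, limma) and CDK12 stayed called (adjusted p = 0.0057, limma).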
